A study of Mus musculus with 12 samples.

Results

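The 8 genes described here belong to the apoptosis and necroptosis machinery and were measured in hematopoietic stem cells of mice that lacked, or kept, the inflammatory caspases of pyroptosis. They are Casp2, Casp6, Casp8, Casp9, Ripk1, Ripk3, Mlkl and Fadd, taken by name as other routes of cell death that might stand in when pyroptosis is lost. All 8 were among the 27179 genes counted and among the 14473 tested, with 591 to 6227 counts in a library. Total RNA of sorted stem cells was sequenced in 12 libraries, with 1 library per mouse and 3 mice per genotype, all on C57BL/6J. Wild-type mice gave WT2, WT3 and WT4 (group WT), and Emu-myc mice gave E1, E2 and E3 (group E). Casp1 -/- Casp11 -/- mice gave C1, C2 and C3 (group C), and Emu-myc Casp1 -/- Casp11 -/- mice gave CE1, CE2 and CE3 (group CE). Emu-myc is a Myc transgene under an immunoglobulin heavy chain enhancer, which acts mainly in the B lineage. No source used here gives the ages, the sorting gate or any pairing of the mice.

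Apoptosis is started by initiator caspases that are switched on in protein complexes. Fadd is the adaptor that brings Casp8 to death receptors, Casp9 is activated on the apoptosome after cytochrome c leaves mitochondria, and Casp2 on a platform built by Pidd1 and Cradd. Casp6 is an executioner caspase that cleaves nuclear lamins. Necroptosis runs from the kinase Ripk1 to the kinase Ripk3, which phosphorylates the pseudokinase Mlkl so that it permeabilises the plasma membrane. Casp8 with Fadd holds this second route in check by cleaving the RIP kinases, so that the apoptotic and necroptotic genes act on each other.

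Libraries held 24529611 to 34065910 counts. Values are CPM, counts scaled to the TMM effective library size. Mean Casp1 was 39.1 ± 9 CPM (WT) and 42.1 ± 3.82 (E), against 5.9 ± 0.699 (C) and 6.1 ± 0.563 (CE), with SD over 3 libraries, so its counts matched the caspase label in every library. Casp4, the listed name of Casp11, was lower by 0.49 on the log2 scale over the 6 knockout libraries (adjusted p = 0.0189 by edgeR), which overlapped the others. None of 10 stem cell markers, including Mecom, Hlf, Procr and Kit, stayed below 1 CPM in every library, and their sum was 656 to 991 CPM. Kit had the highest group means of them, at 390 (WT) to 479 CPM (CE), and Hoxb5 the lowest, at 0.646 (C) to 1.14 CPM (CE). The sum of 10 neutrophil markers was larger in every group, at 8328 to 13277 CPM, with Mpo at means of 6031 (E) to 7693 CPM (WT). The share of other cells in the libraries was not tested. Of the 6 knockout libraries all but CE3 held Y-linked transcripts (91.4 to 121 CPM in sum), which were at 0.263 CPM in CE3 and at most 0.221 CPM in WT and E. Sex and the caspase label therefore nearly coincided and cannot be told apart in full. C1 and C3 had a count for 22900 and 21247 genes, against 17310 to 18863 in the other libraries.

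The promoter sequences of 4 of the genes are shown because Casp6, Casp8 and Mlkl are the genes that passed as lower below and because Ripk3 alone held the core site bound by Myc and its partner Max. They run 5′ to 3′ on the gene's strand from 250 to 31 bases before the RefSeq start (GRCm38.p6). Capitals mark matches to the motifs named after them. The windows are chr3:129901165-129901384 (plus strand) for Casp6, chr1:58802252-58802471 (plus strand) for Casp8, chr8:111338236-111338455 (minus strand) for Mlkl and chr14:55788888-55789107 (minus strand) for Ripk3. The windows of Casp8 and Mlkl lie inside the annotated gene, before a start other than its outermost one.
Casp6: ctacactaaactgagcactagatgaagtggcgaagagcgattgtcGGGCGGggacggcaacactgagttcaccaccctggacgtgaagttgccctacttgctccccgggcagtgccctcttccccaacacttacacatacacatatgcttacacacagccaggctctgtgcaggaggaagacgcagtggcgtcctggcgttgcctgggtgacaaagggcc
Casp8: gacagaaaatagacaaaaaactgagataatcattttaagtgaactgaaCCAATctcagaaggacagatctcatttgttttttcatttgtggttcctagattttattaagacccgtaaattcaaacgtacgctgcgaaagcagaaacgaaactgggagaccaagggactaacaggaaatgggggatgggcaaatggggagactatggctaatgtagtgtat
Mlkl: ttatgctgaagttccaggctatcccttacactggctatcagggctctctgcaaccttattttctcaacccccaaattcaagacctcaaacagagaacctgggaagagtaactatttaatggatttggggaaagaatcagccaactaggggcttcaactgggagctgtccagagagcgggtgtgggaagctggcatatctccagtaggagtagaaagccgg
Ripk3: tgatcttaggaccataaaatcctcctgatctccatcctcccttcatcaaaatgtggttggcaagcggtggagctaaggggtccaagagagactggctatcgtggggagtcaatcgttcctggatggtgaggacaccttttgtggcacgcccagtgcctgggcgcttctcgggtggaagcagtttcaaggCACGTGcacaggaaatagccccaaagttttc

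Windows were found for all 8 genes, with 2 for Ripk1 and 9 in total, and 5 motifs were searched on both strands. The E-box CACGTG lay 61 bases before the start of Ripk3 and in no other of the 9 windows, and 5.01% of all 32851 RefSeq windows of this length held it. The GC box GGGCGG was present in 6 of the 9 windows (28.5% of all windows), among them Casp6, and CCAAT in those of Casp8 and Casp2 (31% of all windows). The STAT-type element TTCNNNGAA was found in 1 Ripk1 window (6.27% of all windows), where it overlapped no other motif. The interferon-response half-site pair, GAAA repeated after a gap of 2 bases, was in none of the 9 (2.63% of all windows), and the Mlkl window held none of the 5 motifs. These are matches of letters only, and binding was not measured.

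The levels of the 8 genes differed widely in these libraries of sorted cells. Per kilobase of exon, Ripk3 was the highest at 51.2 ± 3.22 CPM per kb, followed by Casp8 at 39 ± 4.17 and Casp2 at 25.1 ± 2.21 (SD over all 12 libraries). Mlkl followed at 19.2 ± 2.26 CPM per kb. Fadd at 8.72 ± 0.799, Ripk1 at 7.44 ± 0.451, Casp9 at 5.55 ± 0.58 and Casp6 at 4.54 ± 0.597 CPM per kb were near the median of 6.21 over the 13225 tested genes with a length. Ripk3 stood above 91.6% of those genes and Casp6 above 42.8%. With the length of the longest transcript in place of all exons, Casp2 was at 50.2 CPM per kb and stood above Casp8 at 43.6, and Ripk1 at 9.6 above Fadd at 8.72, so the order within both pairs depends on the length used, while Ripk3 was highest with either length.

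**Figure D1:**
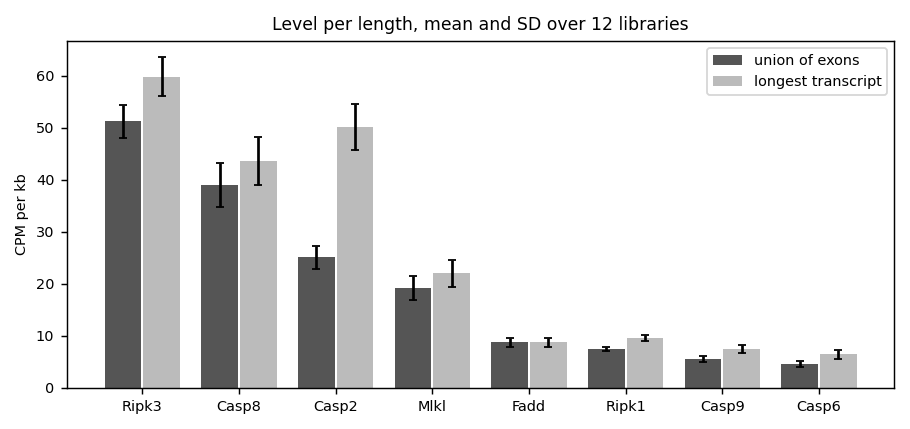
Level of each gene in CPM per kilobase (bars, mean; error bars, SD over 12 libraries), with the length of all exons (dark) or of the longest transcript (light). Ripk3 is highest with either length, at 51.2 and 59.8, and Casp6 is lowest at 4.54 and 6.47.

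Loss of the inflammatory caspases was first read over both backgrounds, with C and CE against WT and E (the average of C against WT and CE against E, 6 libraries against 6). Mlkl, Casp6 and Casp8 passed as lower, each by less than 20%, and none of the 8 genes passed as higher (9.26% of all tested genes). That is 3 of 8 genes lower, where 11.8% of all tested genes passed as lower and 21.0% in either direction (edgeR quasi-likelihood test, Benjamini-Hochberg adjusted p under 0.05). The fitted change was above 0 in 5 of the 8, as in 7239 of the 14473 tested genes. The median log2 change of the 8 was 0.04 and that of all tested genes 0.00. An unadjusted p under 0.05 was found for 4 of the 8, the 3 named and Casp9, and for 35.3% of all tested genes. In bulk libraries fewer cells of a type and less RNA per cell cannot be told apart.

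Mlkl (gene 74568, chromosome 8, 111311255 to 111338479, GRCm38) encodes the membrane-permeabilising end of necroptosis. It was at 52.0, 46.2 and 46.7 CPM in WT2, WT3 and WT4 and at 47.8, 47.3 and 51.3 in E1, E2 and E3. It was at 38.6, 39.9 and 38.8 CPM in C1, C2 and C3 and at 44.8, 37.9 and 38.4 in CE1, CE2 and CE3. All 6 knockout libraries lay below all 6 others, which held for 4.63% of all tested genes. Of the 8 genes Mlkl alone had groups that did not overlap, in either direction, against 8.08% of all tested genes. Mlkl fell by 18.2% (log2 -0.29, SE 0.07, 95% interval -0.43 to -0.15, adjusted p = 0.01 by edgeR). CE3, the knockout library without Y-linked transcripts, was among the lowest 2 of all 12.

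Casp6 (gene 12368, chromosome 3, 129901415 to 129914112) was at 27.7, 24.9 and 25.6 CPM in WT2, WT3 and WT4 and at 29.3, 27.4 and 31.4 in E1, E2 and E3. It was at 21.8, 22.2 and 19.6 CPM in C1, C2 and C3 and at 24.9, 23.4 and 25.7 in CE1, CE2 and CE3. The C libraries were the lowest 3 of the 12 and the E libraries held the highest 2, while CE and WT overlapped. It fell by 17.3% over both backgrounds (log2 -0.27, SE 0.07, 95% interval -0.43 to -0.12, adjusted p = 0.0161 by edgeR). CE3 had the highest value of the 6 knockout libraries and lay inside the WT range.

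Casp8 (gene 12370, chromosome 1, 58795233 to 58847503) was at 118.1, 124.7 and 103.7 CPM in WT2, WT3 and WT4 and at 125.6, 121.3 and 134.0 in E1, E2 and E3. It was at 109.8, 105.4 and 111.1 CPM in C1, C2 and C3 and at 106.3, 101.8 and 91.9 in CE1, CE2 and CE3. WT4 lay below all 3 C libraries, the other 5 libraries of WT and E lay above all 6 knockout libraries, and CE3 was the lowest of the 12. It fell by 13.9% (log2 -0.22, SE 0.07, 95% interval -0.35 to -0.08, adjusted p = 0.0307 by edgeR). Mlkl and Casp6 kept their call without any single library, and Casp8 kept its call only without CE1 or WT4. Leaving out C1, C2, C3, CE2, CE3, E1, E2, E3, WT2 or WT3 ended it, with adjusted p = 0.0629, 0.0685, 0.0594, 0.051, 0.0838, 0.069, 0.0506, 0.0633, 0.0743 and 0.059 and log2 changes of -0.23 to -0.18.

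The adaptor and the mitochondrial initiator had higher means in the knockout groups and did not pass. Fadd (gene 14082, chromosome 7, 144578323 to 144582441) was at 29.4, 30.9 and 37.1 CPM in WT2, WT3 and WT4 and at 33.4, 31.2 and 31.5 in E1, E2 and E3. It was at 33, 36.5 and 35.2 CPM in C1, C2 and C3 and at 35, 34.9 and 40.5 in CE1, CE2 and CE3. The difference was log2 0.15 (SE 0.08, 95% interval -0.01 to 0.31, adjusted p = 0.163 by edgeR), and WT4 lay among the knockout libraries. Casp9 (gene 12371, chromosome 4, 141793612 to 141815978) was at 25, 24.8 and 29.9 CPM in WT2, WT3 and WT4 and at 28.7, 25.9 and 28.4 in E1, E2 and E3. It was at 27.8, 30.6 and 29.2 CPM in C1, C2 and C3 and at 28.7, 31.1 and 35.9 in CE1, CE2 and CE3. The groups overlapped, and its difference was log2 0.17 (SE 0.08, 95% interval 0.00 to 0.34, unadjusted p = 0.0455 and adjusted p = 0.133 by edgeR). Without WT4 both passed as higher, Fadd at log2 0.21 (adjusted p = 0.0253) and Casp9 at log2 0.22 (adjusted p = 0.0298), in a fit where 15.6% of all genes tested passed as higher.

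Neither the 2 kinases nor Casp2 passed. Ripk1 (gene 19766, chromosome 13, 34002225 to 34035170) ranged from 56.0 to 70.4 CPM over the 12 libraries, with means of 59.4 (WT), 62.3 (E), 62.9 (C) and 63.9 (CE). Its pooled difference was log2 0.06 with a 95% interval of -0.08 to 0.20 (adjusted p = 0.544 by edgeR). Ripk3 (gene 56532, chromosome 14, 55784995 to 55788857) was at 120.6, 110.9 and 134.1 CPM in WT2, WT3 and WT4, 110.9, 109.1 and 113.7 in E, 117.9, 121.4 and 109.6 in C, and 117.7, 117.0 and 125.6 in CE, by replicate number. Its difference was log2 0.02 with a 95% interval of -0.11 to 0.15 (adjusted p = 0.832 by edgeR), so the interval ends at a rise of 11.3%. Casp2 (gene 12366, chromosome 6, 42264902 to 42282508) ranged from 136.7 CPM in WT2 to 195.7 in CE1. Its difference was log2 0.12 with a 95% interval of -0.04 to 0.28 (adjusted p = 0.25 by edgeR), and the other 11 libraries lay between 161.6 and 195.7.

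**Figure D2:**
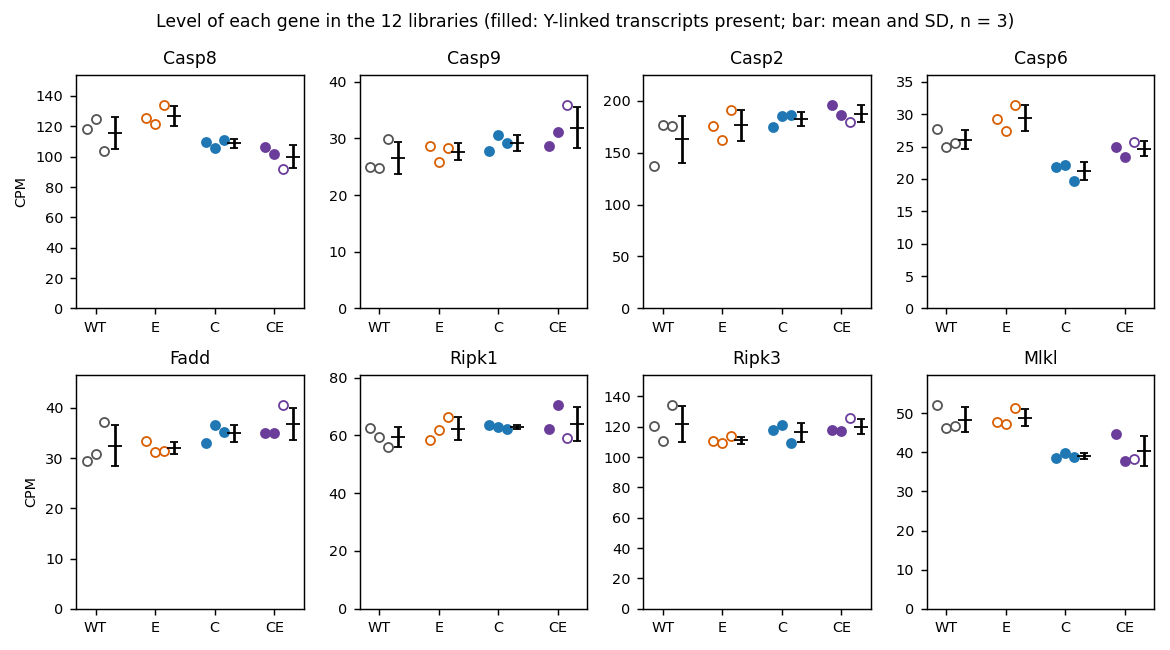
Level of each gene in CPM (y axis, from 0) by genotype group (x axis), with 1 point per library, filled where Y-linked transcripts were present, and the mean and SD of 3 libraries beside them. The 6 libraries of C and CE lie at 37.9 to 44.8 CPM for Mlkl, below the 46.2 to 52.0 of WT and E. For Ripk1 and Ripk3 the libraries of C and CE overlap those of WT and E, although Ripk3 lies higher in CE than in E.

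Several measures moved with the caspase label and therefore stand beside these results. With the Y-linked transcripts as a covariate, a fit in which CE3 alone separates them from the caspase label, none of the 8 genes passed, and 2 genes did over the whole table. Mlkl was then at log2 -0.38 (SE 0.14, adjusted p = 0.197), Casp8 at -0.37 (SE 0.13, adjusted p = 0.193) and Casp6 at -0.20 (SE 0.15, adjusted p = 0.459). Once trends with transcript length and GC were removed, Casp6 still passed (log2 -0.32, adjusted p = 0.0116), whereas Mlkl was at log2 -0.16 (adjusted p = 0.072) and Casp8 at log2 -0.10 (adjusted p = 0.217). In that fit Casp9 was at log2 0.01 and Fadd at log2 0.04. Without C1 and C3 together none of the 8 passed, with Mlkl at log2 -0.27 (adjusted p = 0.156), Casp6 at -0.23 (adjusted p = 0.198) and Casp8 at -0.23 (adjusted p = 0.197).

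**Figure D3:**
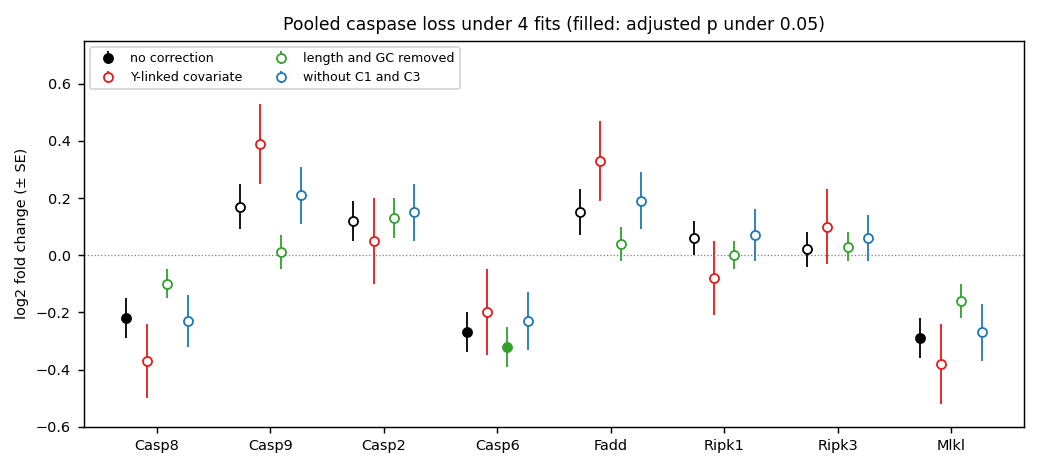
Log2 fold change of each gene over both backgrounds (y axis, error bars SE), as reported and under 3 other fits, filled where the adjusted p was under 0.05. Mlkl, Casp6 and Casp8 lie below 0 in all 4 fits, and Casp6 passes in 2 of them, Mlkl and Casp8 in 1.

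Immediate early genes, which respond to handling and stress, had 9 of 10 listed members higher over both backgrounds. Their sum was 14234 to 17047 CPM in C and CE, 5600 to 8074 in WT2, WT3 and E, and 13995 in WT4. Of 10 macrophage markers 5 were lower, among them Cd5l and C1qa, although the summed list overlapped at 151 to 164 CPM in C, 154 to 211 in CE, 156 to 199 in WT and 157 to 194 in E. Of 10 basophil, eosinophil and mast cell markers 6 were lower, with sums of 116 to 200 CPM in the knockout libraries and 151 to 347 in the others. Of 10 B lineage markers 1 was higher over both backgrounds, and their sums were 102 to 204 CPM in WT, 79.1 to 95.6 in E, 175 to 258 in C and 75 to 84.3 in CE. Lower as well were 2 of 9 tested erythroid, 2 of 9 neutrophil, 3 of 7 T and NK and 1 of 9 megakaryocyte markers, and 4 of 10 stem cell markers were higher. Over both backgrounds 11.8% of all tested genes passed as lower and 9.26% as higher. The counts of megakaryocyte and B lineage markers were near these shares. None of the markers of these lists was at 0 in all libraries. Of the T and NK list Cd3d, Cd3e, Cd3g and Trac were below 1 CPM in every library. The part of these cells and of handling in the changes of Mlkl, Casp6 and Casp8 was not tested.

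Without the transgene, C against WT, none of the 8 genes passed with edgeR (0.656% of all tested genes did), 2 had an unadjusted p under 0.05 (23.2% of all tested genes), and DESeq2 and limma voom each called 1 (9.93% and 12.3% of the genes they tested). Those 2 were Mlkl (log2 -0.31, SE 0.09, adjusted p = 0.0824) and Casp6 (log2 -0.30, SE 0.10, adjusted p = 0.103), and they were also the 2 genes whose groups did not overlap (26.3% of all tested genes). The gene called by DESeq2 (adjusted p = 0.0355) and by limma voom (adjusted p = 0.0465) was Mlkl, which also passed with edgeR without WT4 (adjusted p = 0.0443), where 15.2% of all genes tested did. Casp8 was at log2 -0.09 with a 95% interval of -0.28 to 0.11. The other 5 ranged from log2 -0.07 for Ripk3 to 0.16 for Casp2.

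With the transgene, CE against E, again none of the 8 passed with edgeR (1.58% of all tested genes did), and 3 had an unadjusted p under 0.05 (22.6% of all tested genes). They were Casp8 (log2 -0.34, SE 0.09, adjusted p = 0.0651), Mlkl (log2 -0.27, SE 0.09, adjusted p = 0.113) and Casp6 (log2 -0.25, SE 0.10, adjusted p = 0.154). DESeq2 and limma voom each called Casp8 alone of the 8 (adjusted p = 0.0095 and 0.0194), against 11.2% and 9.62% of the genes they tested. In 5 of the 8 genes the groups did not overlap (29.9% of all tested genes), with Casp8, Casp6 and Mlkl lower in CE and Ripk3 and Fadd higher in CE. Fadd was at log2 0.20 (SE 0.11, adjusted p = 0.279) and Ripk3 at log2 0.11 (SE 0.09, adjusted p = 0.482).

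The transgene itself left no call among the 8 genes. In E against WT none passed with edgeR, DESeq2 or limma voom, none had an unadjusted p under 0.05, and in each the groups overlapped. Of all tested genes 0.0829% passed with edgeR, 0.324% with DESeq2 and 0.117% with limma voom, 6.58% had such a p and in 8.02% the groups did not overlap. Ripk3 was at log2 -0.13 with a 95% interval of -0.32 to 0.06 (adjusted p = 0.775 by edgeR). Its promoter held the E-box shown above, and action of Myc on that site was not tested. Casp6 was at log2 0.17 (adjusted p = 0.768) and Casp8 at log2 0.14 (adjusted p = 0.775). In CE against C none passed with edgeR, DESeq2 or limma voom (0.207%, 0.377% and 0.753% of all tested genes), and 1 had an unadjusted p under 0.05 (5.14% of all tested genes). That gene was Casp6, at log2 0.22 (SE 0.10, 95% interval 0.00 to 0.43, adjusted p = 0.961), and it was the 1 gene whose groups did not overlap (14.9% of all tested genes). Of 10 B lineage markers 8 were lower in this comparison, and their part in the Casp6 value was not tested.

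The transgene effects with and without the inflammatory caspases were then compared. None of the 8 genes passed in the test of the difference with edgeR, DESeq2 or limma voom, none had an unadjusted p under 0.05 (2.11% of all tested genes), and no gene of the whole table passed with edgeR. Casp8 had the smallest p of the 8. All 3 E libraries lay above the WT mean of 115.5 CPM and all 3 CE libraries below the C mean of 108.8. The groups still overlapped in both comparisons, with WT3 at 124.7 above E2 at 121.3 and CE1 at 106.3 above C2 at 105.4. The difference of the effects was log2 -0.26 (SE 0.13, 95% interval -0.54 to 0.02, unadjusted p = 0.0667, adjusted p = 0.9997 by edgeR). The other 7 ranged from log2 -0.07 for Casp2 to 0.18 for Ripk3.

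**Figure D4:**
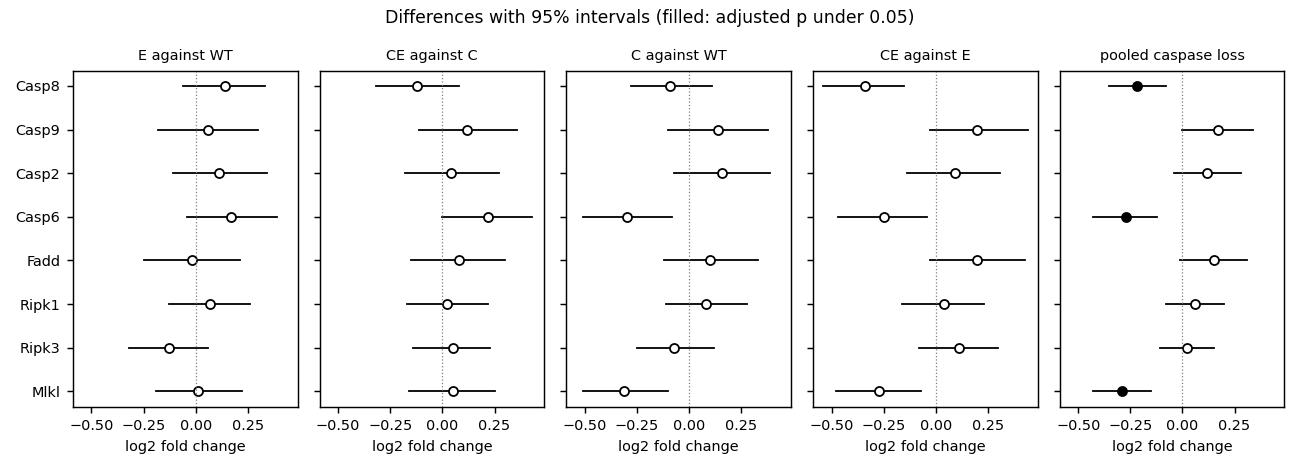
Log2 fold change of each gene (points) with its 95% interval (lines) in 4 comparisons of groups of 3 and in the pooled comparison of caspase loss, filled where the adjusted p was under 0.05. Only Casp8, Casp6 and Mlkl in the pooled comparison are filled, at -0.22, -0.27 and -0.29.

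In the order of their group means, Casp2, Casp9 and Ripk1 ran from WT through E and C to CE, and every pair of neighbours overlapped. Fadd had the same order with E and WT exchanged, and its neighbours overlapped too. For Mlkl the order was C, CE, WT and E, with a gap between CE and WT. Casp6 had that order as well, with its gap between C and CE instead. Casp8 ran from CE through C and WT to E and Ripk3 from E through C and CE to WT, in both with every pair of neighbours overlapping.

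Within a library the ratio of 2 genes does not depend on the depth, but it can carry trends with transcript length and GC. GC content of the longest transcript was 54.2% for Ripk3 and 48.6% for Mlkl, and 46.6% for Casp8 and 51.2% for Fadd. The ratios were not computed with these trends removed. The Ripk3 to Mlkl ratio of CPM, kinase to substrate, was 2.32, 2.40 and 2.87 in WT2, WT3 and WT4 and 2.32, 2.31 and 2.22 in E1, E2 and E3. By replicate number it was 3.05, 3.04 and 2.83 without the transgene (C) and 2.63, 3.09 and 3.27 with it (CE). WT4 lay inside the range of the knockout libraries. The Casp8 to Fadd ratio was 4.01, 4.04 and 2.80 in WT2, WT3 and WT4 and 3.77, 3.88 and 4.26 in E1, E2 and E3. In the knockout it was 3.33, 2.89 and 3.16 (C) and 3.04, 2.92 and 2.27 (CE), so that WT4 was lower than 5 of the 6 knockout libraries.

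Correlations between the 8 genes across the 12 libraries are given as a description with no test, since all genes share the same libraries, depth and groups. Casp9 and Fadd had a Pearson r of 0.93, Casp6 and Mlkl 0.81, and Casp8 and Mlkl 0.73, whereas Casp8 had r of -0.84 with Fadd and -0.76 with Casp9. GC content of the longest transcript was 53.4% for Casp9 and 51.2% for Fadd against 46.6% for Casp8, with a median of 50.0% over tested genes. After length and GC trends were removed, Casp8 and Casp9 were at r = -0.32, Casp8 and Fadd at -0.66, and Casp9 and Fadd at 0.80. The pair of Casp6 and Mlkl was then at 0.79 and that of Casp8 and Mlkl at 0.52. Casp6 and Casp8 went from 0.53 to 0.27.

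**Figure D5:**
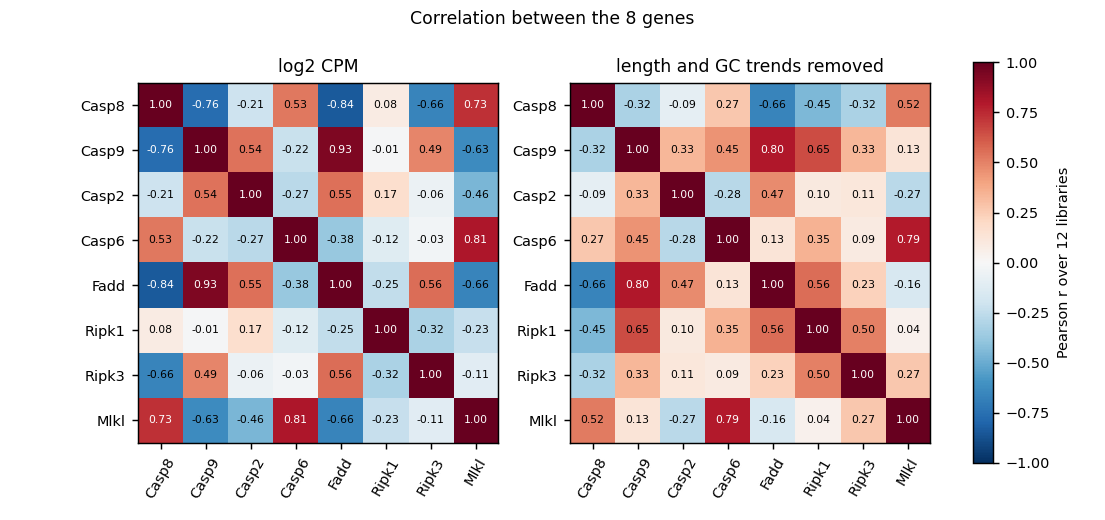
Pearson r between the log2 CPM of each pair of genes over 12 libraries, as measured (left) and after removal of length and GC trends (right). Casp6 with Mlkl keeps 0.81 and 0.79, and Casp8 with Casp9 goes from -0.76 to -0.32.

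Among all tested genes with an ordinary symbol, those most like each gene over the 12 libraries were named by their Pearson r. For Mlkl they were Acot9 (0.956), Rab9 (0.95) and Mthfsl (0.949), and for Casp6 Tmem59 (0.935) and Fam174a (0.931). For Casp8 they were Btk (0.969), Cyrib (0.96) and Fkbp3 (0.948). Casp9 was closest to Zbtb45 (0.976), Bahd1 (0.956) and Sh3tc1 (0.953), and Fadd to Arhgap1 (0.969), Lrrc20 (0.969) and Anapc2 (0.966). Casp2 was closest to Mettl7a1 (0.954), Atg14 (0.954) and Ypel1 (0.952). Ripk3 was closest to Gss (0.966), Tmed1 (0.956) and Zfand2b (0.935), and Ripk1 to Washc2 (0.922), Taf4 (0.905) and Lca5 (0.887). After removal of length and GC trends the values were 0.693, 0.056 and 0.352 for Btk, Cyrib and Fkbp3, and 0.341, -0.201 and 0.097 for Washc2, Taf4 and Lca5. Gss was then at 0.335, Tmed1 at 0.826 and Zfand2b at 0.724, and Tmem59 was at 0.586 and Fam174a at 0.907. The genes named for Mlkl, Casp9, Fadd and Casp2 were at 0.605 to 0.955. The highest of 14473 genes is high in any set of 12 libraries, so these values describe the libraries only.

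Few of the genes that act with these 8 passed. Of 69 further pathway genes 68 were tested, and none passed in any comparison of 2 groups or in the difference of the transgene effects. Over both backgrounds 3 passed as higher and 3 as lower, against 9.26% and 11.8% of all tested genes, and their median was log2 0.03. Cycs, the cytochrome c that builds the apoptosome with Apaf1 and Casp9, fell by 0.53 on the log2 scale (SE 0.11, adjusted p = 0.00578), from 79.8 ± 21.3 CPM in WT and 70.1 ± 10.3 in E to 58.2 ± 2.15 (C) and 46.1 ± 2.18 (CE) (SD, n = 3 per group). Cycs was the 1 gene of 5 that passed on the apoptosome list. Neither of 2 Casp2 platform genes passed, with the smaller p for Pidd1 (log2 0.10, adjusted p = 0.334).

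Of 10 tested receptors and ligands of the TNF family, Fas and Tnfrsf1a among them, only Tnfrsf1b passed. Tnfrsf1b, the second TNF receptor, rose (log2 0.23, SE 0.07, adjusted p = 0.0242 by edgeR). Of 20 receptor-proximal adaptors and ubiquitin enzymes Spata2, which links the deubiquitinase Cyld to the receptor complex, rose (log2 0.39, SE 0.09, adjusted p = 0.0093). Otulin, a deubiquitinase of linear chains, fell (log2 -0.18, SE 0.06, adjusted p = 0.0364). Of 15 necroptosis inputs and regulators the membrane-repair gene Chmp2a fell (log2 -0.26, SE 0.08, adjusted p = 0.0281). Of 14 caspase substrates the spectrin gene Sptan1 rose (log2 0.31, SE 0.07, adjusted p = 0.0088). All 6 lost their call with the Y-linked covariate and without C1 and C3 together, and Cycs and Spata2 kept it once length and GC trends were removed. Cycs, Spata2 and Sptan1 kept their call without any single library. Tnfrsf1b lost it without C1, C3 or E3, Chmp2a without C3, CE2, E1 or WT2, and Otulin without any of 9 libraries, all but E3, WT3 and WT4.

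Whether the counting used strand is not known here, so reads from overlapping genes may not be told apart. Ripk1 overlaps Serpinb6a over 570 bases, and Serpinb6a was at 13.1 to 19.4 CPM. Casp9 overlaps Cela2a over 1025 bases, and Cela2a was at 0 to 0.242 CPM. Casp6 and Ripk3 overlap long non-coding RNA genes that were not analysed here.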

How the data were processed

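The deposited table holds raw counts per gene for 12 libraries, by NCBI Gene number, and per the submitters' processing notes STAR 2.5.3 and mm10 were used. The counter, annotation, strandedness and filters were not given in the sources used here, and no normalization by the authors was seen in the whole-number values. RefSeq (GRCm38.p6) gave symbols for 25275 of 27179 genes, and GENCODE M21 gave exon lengths and GC content. The other 1904 stayed in the tests by number.

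All 12 libraries were fitted together with edgeR 4.0.16 (R 4.3.3): TMM factors, filterByExpr, group means, and two-sided quasi-likelihood F tests. The threshold was a Benjamini-Hochberg adjusted p of 0.05 over 14473 genes. The biological coefficient of variation was 0.139. Intervals are 95% intervals of the fitted log2 fold change. Alternatives were RLE factors, other low-count filters, DESeq2 1.42.0, limma 3.58.1 voom, only the groups compared, a replicate block, Y-linked transcripts as a covariate (summed level above 1 CPM), offsets for length and GC trends (13225 genes with a value), and libraries left out. Correlations used log2 CPM with a prior count of 2, and those with length and GC trends removed were added after seeing the data. The steps were tested on simulated data.

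The 8 genes, the pathway and marker lists and the tests were chosen with earlier results of these data known. The named genes were all 8, Casp1 and Casp4, pathway genes that passed (where none of a list did, the 1 with the smallest p), and the 3 genes most like each by Pearson r; some results under this rule are not reported here. The labels name no batch, and no library was left out of the reported fit.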

Additional observations from a re-analysis of the deposited data

How the results depend on the processing

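Of 832 values (48 log2 differences under the alternatives run for each), 803 kept their side of the threshold, 18 lost a call, 11 gained one and no called value changed sign. In 47 of them the sign of a value that did not pass differed. Over both backgrounds 3 of the 8 genes passed as reported, 5 with the replicate block, 0 with the Y-linked covariate, 1 with length and GC trends removed and 0 without C1 and C3 together, which leaves 1 library in C that is assumed to vary like the others. Leaving out single libraries gave 2 to 5 there, and 5 without WT4. In C against WT 0 passed as reported and 1 with DESeq2, limma voom or the replicate block, and 0 to 1 without single libraries. In CE against E 0 passed as reported and 1 with DESeq2, limma voom or the replicate block. In E against WT, CE against C and the difference none of the 8 passed under any alternative run. Over all genes 3042 passed for the pooled loss, 4430 with the replicate block, 2 with the Y-linked covariate, 1625 with length and GC trends removed, 20 without C1 and C3, and 1594 (without C3) to 4667 (without WT4) without single libraries. In C against WT 95 passed, and 1 (Y-linked covariate) to 2258 (without WT4) under the alternatives. In CE against E 229 passed, and 2 (Y-linked covariate, and without CE1 or CE2) to 1475 (replicate block). In CE against C 30 passed, and 0 (without C1 and C3) to 203 (no filter on low counts). In E against WT 12 passed, and 1 (only the groups compared) to 217 (no filter on low counts). For the difference 0 passed, and 39 with no filter on low counts. The cause of these changes was not tested.

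Replicate numbers are shared by the groups, but nothing in the labels pairs the mice. Deviations from group means of same-numbered libraries correlated at -0.244 to 0.166 over 15 pairs, over 0.1 in 4, and 2 of 12 libraries correlated best with a library of their own number. With the replicate block Casp9 (log2 0.23, adjusted p = 0.0377) and Fadd (log2 0.21, adjusted p = 0.0385) passed as higher over both backgrounds, Mlkl passed in C against WT (log2 -0.35, adjusted p = 0.0497) and Casp8 in CE against E (log2 -0.34, adjusted p = 0.0236). No call was lost with it, and over all genes 30.6% passed for the pooled loss with the block, 14.1% in C against WT and 10.2% in CE against E. Where nothing says that libraries were prepared separately, p-values measure the spread between these mice and libraries together.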
